A study of Rattus norvegicus with 6 samples.

Results

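Genes of the sarcomere and of striated muscle were read in H9c2, an established cell line from the heart muscle of a rat embryo, after simulated ischemia-reperfusion. The members are 36 genes given by symbol, with no threshold on their values in the rule, and 34 of them have a row among the 26126 entries of the deposited count table. Myh1 and Ttn were not analysed here. All 6 libraries are from H9c2 cells grown with 10% serum and put in an acidic buffer of pH 6.2 that holds 2-deoxyglucose and lactate, in a chamber flushed for 30 min with 95% nitrogen and 5% carbon dioxide and then sealed for 1.5 to 3.5 h. The reperfusion step is named in the labels without further detail. The control group has 3 libraries with a control adenovirus. The other group has 3 libraries with an adenovirus labelled adPERK, described as PERK overexpression. PERK is a stress sensor in the endoplasmic reticulum membrane that lowers protein synthesis through eIF2. No untreated cells and no cells without virus enter the comparison. The labels do not say that replicates are separate cultures. The p-values then describe only how far these libraries spread, and that spread may be technical.

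The sarcomere is the contractile unit of striated muscle. Myosin thick filaments pull on actin thin filaments, troponin and tropomyosin on the thin filament gate that pull by calcium, and Z-disc proteins anchor the thin filaments. Skeletal and cardiac muscle build the same machine from related genes, so fast skeletal, slow skeletal, embryonic and cardiac isoforms serve as signs of the muscle type. H9c2 cells are widely used as a heart cell model and are known to form skeletal-type myotubes under low serum.

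The smallest library, control replicate 3, held 77923398 counts and the largest, PERK replicate 2, held 119087414, and the members took 0.251% to 0.291% of them. Levels are given as CPM, each count relative to its library total after TMM scaling. Low counts fell near multiples of about 6 (period 5.8 to 6.15), so the limit that a count of 0 allows was set at 3 such steps, 18 counts, or 0.15 to 0.231 CPM by library, for counting error only. Control replicate 3 had 19287 entries above 0 against 15377 to 16685 in the others, and 45.5% of its 1082 olfactory receptor genes were above 0 against 6.19% to 14.6%. Eif2ak3, which encodes PERK, stood at 25.8 ± 1.60 CPM in control and 26.3 ± 0.318 CPM with adPERK (SD, n = 3), with a log2 fold change of 0.03 (edgeR adjusted p = 0.887), so this gene does not bear the labels out, and directions below rest on the labels alone.

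Most genes placed in the skeletal classes were expressed, and most of those placed in the cardiac class were near or at 0. A gene was called expressed at a mean of 5 CPM or more over the 6 libraries, low from 0.5 to below 5 CPM, and near 0 below 0.5 CPM. Of the 34 members 20 were expressed, 5 were low, 6 were near 0 and 3 were listed at 0 in every library, beside 37.5% of all 26126 entries expressed. Just inside the upper threshold lay Des at 5.36 CPM and Actc1 at 5.44 CPM, and just outside it Ckm at 3.91 CPM and Gata4 at 3.89 CPM. Of 14 genes placed in skeletal classes 12 were expressed, and of 8 genes placed in the cardiac class 2 were. Of 6 genes shared by slow skeletal and ventricular muscle 3 were expressed. So were 2 of 2 cardiac genes that developing skeletal muscle also uses, and 1 of 4 genes of all striated muscle. These counts depend on the class in which each gene was placed. Without control replicate 3 the expressed and the near-0 or 0 genes still numbered 20 and 9. Transcript lengths were not used here, so CPM of different genes carry their unequal lengths and no order of levels between genes is drawn beyond these classes.

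**Figure D1:**
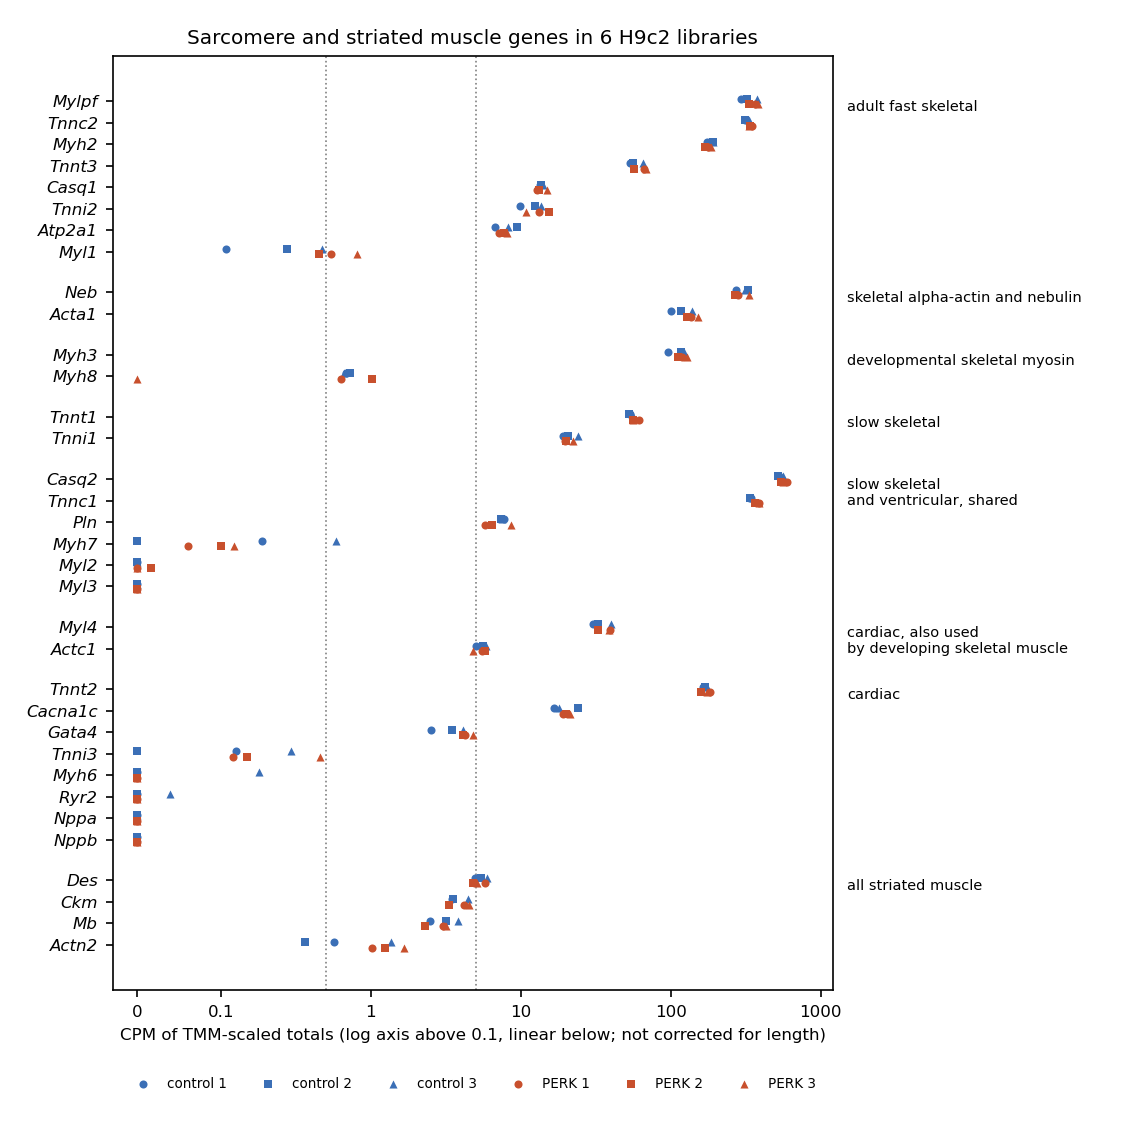
Level of each of the 34 members in each library, in CPM of TMM-scaled totals on an axis that is logarithmic above 0.1 and linear below, with control libraries in blue and PERK-labelled libraries in red and the replicate shown by the marker. Dotted lines mark 0.5 and 5 CPM; genes are grouped by isoform class, and Myl2, Myl3, Myh6, Ryr2, Nppa and Nppb sit at or next to 0 while 12 of 14 genes of the skeletal classes lie to the right of the second line.

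The labelled cell type was set against marker genes. Of 7 cardiomyocyte markers 1 was expressed (Tnnt2), Gata4 was low, Myh6, Tnni3, Ryr2 and Nkx2-5 were near 0 and Nppa was listed at 0. Of 7 skeletal muscle markers 6 were expressed (Myod1, Myog, Myh3, Mylpf, Tnnt3 and Acta1), and Myf5 was listed at 0. All of these cardiomyocyte markers except Nkx2-5 are members, as are Myh3, Mylpf, Tnnt3 and Acta1. The check thus largely repeats the levels above, and only Nkx2-5, Myod1, Myog and Myf5 come from outside the members. The cells are described below by gene and not as cardiomyocytes. Among markers of other cells, 5 of 6 fibroblast markers were expressed, with Col1a1, Col3a1, Thy1, Dcn and Postn summing to 27550 to 28950 CPM in control and 29090 to 30070 CPM with adPERK, and Pdgfra near 0. None of 6 endothelial, 1 of 6 leukocyte (Cd14), 2 of 7 epithelial (Krt8 and Krt7) and 1 of 5 neuronal markers (Tubb3) was expressed. The endothelial list summed to 1.36 to 2.14 CPM in control and 0.638 to 1.33 CPM with adPERK, the epithelial list to 48.7 to 52.9 and 53.2 to 54.2 CPM, the neuronal list to 23.4 to 23.9 and 24.2 to 27.1 CPM, the leukocyte list to 8.54 to 12.3 and 9.98 to 11.1 CPM, and no gene of these 5 lists passed the test. The summed fibroblast, endothelial, epithelial and neuronal levels did not overlap between the groups, each by a narrow gap. The endothelial sum was lower with adPERK and the other 3 were higher. Groups also did not overlap for 18.2% of all single entries tested. In the endothelial list only Tek was not near 0, at 1.40 CPM in control and 0.792 CPM with adPERK. The part of these lists in the results below was not tested. All 6 libraries are from the H9c2 line, so these levels are not read as the presence of other cell types. In bulk libraries a change in the share of cells that express a gene and in its RNA per cell cannot be told apart.

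In windows around the start sites of 4 members, some of the same short motifs occurred at expressed and at unexpressed genes. Windows of 250 bases before to 50 bases after the annotated start were taken from RefSeq on the GRCr8 build, which is not stated to be the build of the counts, and 29 of the 34 members had one. Acta1 and Actc1, the skeletal and cardiac alpha-actins, were both expressed. Myl3, a slow skeletal and ventricular light chain, and Nppa, the atrial natriuretic peptide, were both listed at 0. Capitals mark the E-box CAGCTG, bound by myogenic factors such as MyoD and myogenin, the CArG box, bound by serum response factor, the MEF2 site and the TATA motif TATAAA, each searched on both strands. The windows are chr19:68784145-68784444 on the minus strand, chr3:121271778-121272077 on the minus strand, chr8:119616844-119617143 on the plus strand and chr5:163711934-163712233 on the plus strand, each printed 5′ to 3′ along the gene.
Acta1: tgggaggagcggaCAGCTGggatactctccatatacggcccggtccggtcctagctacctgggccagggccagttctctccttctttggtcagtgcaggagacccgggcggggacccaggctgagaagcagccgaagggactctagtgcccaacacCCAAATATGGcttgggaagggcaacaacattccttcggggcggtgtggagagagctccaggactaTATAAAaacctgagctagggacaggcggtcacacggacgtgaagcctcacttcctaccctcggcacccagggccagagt
Actc1: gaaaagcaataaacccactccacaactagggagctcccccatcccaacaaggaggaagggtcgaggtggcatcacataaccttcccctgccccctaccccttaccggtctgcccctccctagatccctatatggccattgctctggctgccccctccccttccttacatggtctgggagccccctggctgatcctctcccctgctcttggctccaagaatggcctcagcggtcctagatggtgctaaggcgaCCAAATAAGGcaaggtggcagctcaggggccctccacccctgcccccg
Myl3: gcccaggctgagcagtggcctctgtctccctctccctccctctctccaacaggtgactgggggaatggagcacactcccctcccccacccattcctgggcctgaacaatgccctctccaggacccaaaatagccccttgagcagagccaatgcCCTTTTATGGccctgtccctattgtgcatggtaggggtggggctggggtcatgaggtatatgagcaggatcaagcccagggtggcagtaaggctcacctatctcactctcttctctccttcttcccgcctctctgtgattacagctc
Nppa: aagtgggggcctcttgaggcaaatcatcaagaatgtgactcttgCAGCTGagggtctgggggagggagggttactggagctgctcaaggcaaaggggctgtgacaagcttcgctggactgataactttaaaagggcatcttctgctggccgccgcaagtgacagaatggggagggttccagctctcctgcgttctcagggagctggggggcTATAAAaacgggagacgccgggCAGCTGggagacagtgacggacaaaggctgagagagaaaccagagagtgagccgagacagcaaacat
The Acta1 window held a CArG box whose first base lay 94 bases before the start, an E-box 237 bases before it and a TATA motif 29 bases before it. The Actc1 window held a CArG box 2 bases after the start, and the Myl3 window held one 97 bases before it. Nppa held E-boxes 206 and 17 bases before its start and a TATA motif 39 bases before it. Over the 29 windows, the E-box was in 12, the CArG box in 3, the TATA motif in 10 and the MEF2 site in 1, the last before Casq2. The 3 windows with a CArG box are those of Acta1, Actc1 and Myl3, so the printed windows are not typical of the 29. Of all 33469 windows of this length the same motifs were in 15.1%, 1.64%, 14.2% and 3.29%. The E-box was in 7 of 17 expressed and in 4 of 8 near-0 or 0 members with a window. These matches are descriptions of letters, not of bound sites, and the MEF2 search can overlap the TATA motif.

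Among myosin heavy chains, the motors of the thick filament, the skeletal genes Myh2 and Myh3 were expressed. The cardiac gene Myh6 and the slow skeletal and ventricular gene Myh7 were near 0. Myh2, the fast IIa heavy chain, was 175, 190.1 and 192 CPM in the 3 control libraries in order and 178, 169 and 186 CPM with adPERK. Myh2 lies in a cluster of near-identical skeletal genes, so reads may be shared with neighbours such as Myh1, and its level is uncertain as that of a single gene. Myh3, the embryonic heavy chain, was 95.6, 116 and 123 CPM in control and 119.9, 112 and 129 CPM with adPERK, with groups that overlap. Myh8, the perinatal heavy chain, was low, at 0.638 to 1.02 CPM in 5 libraries and at 0 in PERK replicate 3. The cardiac alpha heavy chain Myh6 had 14 counts in control replicate 3 and 0 in the other 5 libraries. Myh7, the slow skeletal and ventricular beta heavy chain, had 21, 0 and 46 counts in control and 6, 12 and 11 counts with adPERK, above the limit of 18 counts in 2 control libraries.

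Of the myosin light chains, the small subunits on the myosin neck, Mylpf and Myl4 were expressed and Myl1, Myl2 and Myl3 were near or at 0. Mylpf, the fast skeletal regulatory light chain, was 294, 325 and 378 CPM in control and 364, 331 and 379 CPM with adPERK. Myl4, the atrial and embryonic essential light chain that developing skeletal muscle also uses, was 30.4, 32.8 and 40.2 CPM in control and 39.3, 32.9 and 39.0 CPM with adPERK. For both genes control replicate 1 was the lowest library and the groups overlapped. Myl1, the fast skeletal essential light chain, was near 0 with 12, 23 and 37 counts in control and 54, 54 and 73 counts with adPERK. Myl2 and Myl3 are the regulatory and essential light chains shared by slow skeletal and ventricular muscle. Myl2 had 2 counts in PERK replicate 2 and 0 elsewhere, and Myl3 had 0 counts in all 6 libraries.

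Of the 8 troponin genes 7 were expressed. Troponin C binds calcium, troponin I holds the thin filament off, and troponin T ties both to tropomyosin. Tnnc1, troponin C of slow skeletal and cardiac muscle, was 344, 336 and 349 CPM in control and 387, 368 and 390.5 CPM with adPERK. Tnnc2, the fast skeletal troponin C, was 313, 311 and 334 CPM in control and 351, 337 and 334 CPM with adPERK. In both genes every PERK-labelled library lay above every control library, for Tnnc2 by a narrow gap.

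All 3 troponin T genes were expressed. Tnnt2, the cardiac troponin T that immature skeletal muscle also makes, was 163, 171 and 174 CPM in control and 183, 160.5 and 175 CPM with adPERK. Tnnt1, the slow skeletal form, was 53.4, 53.0 and 55.5 CPM in control and 61.7, 56.1 and 56.4 CPM with adPERK, without overlap. Tnnt3, the fast skeletal form, was 53.7, 55.8 and 65.5 CPM in control and 66.5, 56.9 and 68.0 CPM with adPERK, which overlap.

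Of the troponin I genes the skeletal forms were expressed and the cardiac form was near 0. Tnni1, the slow skeletal form, was 19.0, 20.7 and 24.0 CPM in control and 19.6, 20.1 and 22.5 CPM with adPERK. Tnni2, the fast skeletal form, was 9.86, 12.4 and 13.8 CPM in control and 13.3, 15.5 and 10.9 CPM with adPERK. Tnni3, the cardiac form used clinically as a sign of heart injury, had 14, 0 and 23 counts in control and 12, 18 and 41 counts with adPERK. The cells thus held transcripts of Tnnt2 and Tnnc1, and few of their cardiac partner Tnni3.

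The sarcomeric actins and nebulin form the thin filament. Acta1, skeletal alpha-actin, was 101, 117 and 138 CPM in control and 137, 129 and 152 CPM with adPERK. Actc1, cardiac alpha-actin and the main sarcomeric actin of embryonic muscle, was 5.07, 5.63 and 5.83 CPM in control and 5.54, 5.80 and 4.80 CPM with adPERK. Actin genes are near-identical in coding sequence, so the split of reads between Acta1, Actc1 and other actins is uncertain. Neb, the nebulin ruler of the skeletal thin filament, was 272, 328 and 311 CPM in control and 282, 268 and 333 CPM with adPERK, and the groups overlapped.

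At the Z-disc and in the cytoplasm the general striated muscle genes were low or barely expressed. Actn2, the alpha-actinin of striated muscle Z-discs, was 0.569, 0.363 and 1.37 CPM in control and 1.02, 1.25 and 1.68 CPM with adPERK. Des, the intermediate filament desmin that links Z-discs, was 4.99, 5.47 and 5.98 CPM in control and 5.78, 4.78 and 5.14 CPM with adPERK. Ckm, the muscle creatine kinase, ranged from 3.31 to 4.49 CPM over the 6 libraries, and Mb, the oxygen store myoglobin, from 2.30 to 3.80 CPM. The groups overlapped for all 4 genes.

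Calcium handling genes were mixed by isoform. Casq2, the cardiac and slow fibre calsequestrin that stores calcium in the sarcoplasmic reticulum, was 531, 519 and 557 CPM in control and 597, 541 and 561 CPM with adPERK. Casq1, the fast skeletal calsequestrin, was 13.5, 13.6 and 14.0 CPM in control and 12.9, 13.2 and 14.9 CPM with adPERK. Ryr2, the cardiac calcium release channel, had 3 counts in control replicate 3 and 0 in the other 5 libraries. The cells thus held many counts for the cardiac calcium store and almost none for the cardiac release channel, while Ryr1, the skeletal release channel and not a member, was 26.5 ± 1.36 CPM in control and 28.5 ± 3.38 CPM with adPERK.

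Channels and pumps of the same system were expressed at modest counts. Cacna1c, the L-type calcium channel of heart and smooth muscle, was 16.6, 24.1 and 17.9 CPM in control and 19.1, 19.9 and 21.2 CPM with adPERK. Atp2a1, the fast skeletal calcium pump SERCA1, was 6.77, 9.46 and 8.18 CPM in control and 7.22, 7.71 and 8.09 CPM with adPERK. Pln, phospholamban, was 7.72, 7.44 and 7.46 CPM in control and 5.78, 6.43 and 8.67 CPM with adPERK. It restrains chiefly the pump SERCA2 of heart and slow fibres, whose gene Atp2a2 is not a member. The groups overlapped for Casq1, Casq2, Cacna1c, Atp2a1 and Pln.

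The cardiac stress hormones were not detected. Nppa and Nppb, the atrial and B-type natriuretic peptides that stressed heart muscle secretes, had 0 counts in all 6 libraries, which allows up to 0.15 CPM in the deepest library and 0.231 CPM in the shallowest. Gata4, a transcription factor of the early heart that activates both, was low but present, at 2.53, 3.47 and 4.11 CPM in control and 4.28, 4.15 and 4.79 CPM with adPERK. All PERK-labelled libraries lay above all control libraries for Gata4, with control replicate 3 close below the nearest of them.

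Every library had counts above 0 in at least 1 of the near-0 genes. Of the 9 genes near or at 0, control replicate 3 had 5 above 0, PERK replicate 2 had 4, control replicate 2 had 1 and the remaining libraries had 3 each. Myh6 and Ryr2 were above 0 in control replicate 3 alone, the library in which 45.5% of olfactory receptor genes were above 0. Without it the members listed at 0 numbered 5 in place of 3. The part that library plays in the low counts of Myh6 and Ryr2 was not tested.

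Within each group, 1 library tended to be lowest and 1 highest across the expressed members. Control replicate 1 was the lowest control library for 15 of the 20 expressed members, and control replicate 3 was the highest for 16 and the lowest for 0. Over all 9788 entries of 5 CPM or more those libraries were the lowest in 33.2% and the highest in 29%. In the PERK-labelled group, replicate 2 was the lowest for 12 of 20 members, and replicate 3 the highest for 12, beside 31.9% and 33.5% of all such entries. The largest coefficients of variation among control libraries, of the 20, were those of Cacna1c, Atp2a1, Tnni2 and Acta1. The median coefficient of variation of the 20 members was 9.3% in control and 7.14% with adPERK, and that of all such entries 5.29% and 5.06%. Within each group the library with the largest total count, control replicate 1 or PERK replicate 2, was the one most often lowest, and the library with the smallest total, control replicate 3 or PERK replicate 3, was the one most often highest. The part of depth in this was not tested.

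**Figure D2:**
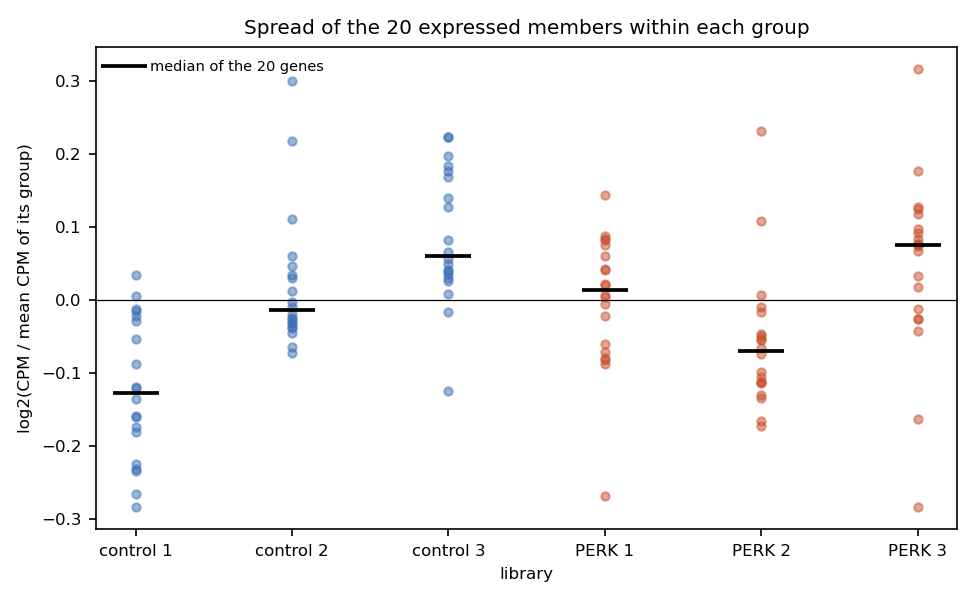
Level of each of the 20 expressed members in each library relative to the mean of its own group, as log2 of the ratio, with 1 point per gene and a black bar for the median of the 20 genes. Points of control replicate 1 lie mostly below 0, where it is the lowest control library for 15 of 20 genes, and points of control replicate 3 mostly above, where it is the highest for 16.

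None of the members passed the test of PERK-labelled against control libraries, which asks how PERK overexpression alters expression after simulated ischemia-reperfusion. Of the 34 members 28 passed the low-count filter and were tested with edgeR's quasi-likelihood test, and 0 had a Benjamini-Hochberg adjusted p under 0.05 over all 14488 entries tested, of which 61 or 0.421% did (45 or 0.311% higher and 16 or 0.11% lower). The filter kept 3 genes that are near 0 (Myh7, Myl1 and Tnni3) and left out Myh6, Myl2, Myl3, Ryr2, Nppa and Nppb. At an unadjusted p under 0.05 there were 2 of 28, Tnnc1 and Tnnc2, beside 11.2% of all tested entries. The groups did not overlap for 4 of 28 members, Tnnc1, Tnnc2, Tnnt1 and Gata4, each higher with adPERK, beside 18.2% of all tested entries. These shares are no larger than the background. The median log2 fold change of the 28 was 0.07, beside -0.0045 for all tested entries, with 17 above 0 and 11 below. Of the skeletal classes 8 of 14 tested genes lay above 0, and of the others 9 of 14.

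The size of change that these data allow was narrow for the abundant members. Tnnc1 went from 343 ± 6.84 to 382 ± 12.3 CPM (SD, n = 3), a log2 fold change of 0.15 with SE 0.03 and edgeR adjusted p = 0.149. DESeq2, run on the same counts, gave it 0.15 with adjusted p = 0.00101, and over all alternatives tried its adjusted p ranged from 0.00101 to 0.334. Tnnc2 had a log2 fold change of 0.09 (SE 0.04, edgeR adjusted p = 0.415), and Tnnt1 of 0.10 (SE 0.05, edgeR adjusted p = 0.492). Acta1 had 0.23 with a 95% interval from -0.03 to 0.48, and Tnnt2 had 0.03 with an interval from -0.09 to 0.15. Casq2 had 0.08 with an interval from -0.02 to 0.18, Myh2 -0.06 from -0.18 to 0.05, and Neb -0.04 from -0.25 to 0.17. Over the 20 expressed members no interval reached below -0.47 or above 0.51, the bounds set by Pln and Tnni2.

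Members below 5 CPM had intervals of very different widths. Ckm had 0.06 with a 95% interval from -0.32 to 0.44, and Mb -0.16 from -0.62 to 0.30. Gata4 went from 3.37 ± 0.794 to 4.41 ± 0.338 CPM, a log2 fold change of 0.39 with a 95% interval from -0.04 to 0.82 (edgeR adjusted p = 0.482). Actn2 had 0.78 with an interval from -0.30 to 1.86, Myl1 1.08 from -0.38 to 2.53, and Myh7 -1.44 from -4.51 to 1.62. Ckm, Mb, Gata4 and Actn2 were low by the classes above, and Myl1 and Myh7 were near 0. The estimate for Myl1 rests on 12 to 73 counts per library. With 1 library left out Actn2 ranged from 0.44 to 1.49, Myl1 from 0.68 to 1.65 and Myh7 from -2.03 to -0.03. The highest value of each came without control replicate 3, the lowest of Actn2 and Myh7 without control replicate 2 and that of Myl1 without control replicate 1.

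Of the 6 fits with 1 library left out, the one without control replicate 3 had the most members under an unadjusted p of 0.05. Without it 10 members had an unadjusted p under 0.05, all 10 higher with adPERK, and none passed after adjustment (edgeR adjusted p from 0.254 to 0.504). They were Tnnc1, Tnnc2, Mylpf, Myl4, Tnnt3, Acta1, Casq2, Myl1, Actn2 and Gata4. Control replicate 3 was the highest control library for all 10, so leaving it out lowers their control mean and raises their fold changes. The direction that these 10 share in this fit is therefore no separate result. Acta1 then had a log2 fold change of 0.36, Mylpf 0.21, Gata4 0.56 and Actn2 1.49. The share of all tested entries under 0.05 fell from 11.2% to 9.8% in that fit. Without control replicate 1, in which these genes were mostly lowest, Acta1 stood at 0.12 and Gata4 at 0.22.

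**Figure D3:**
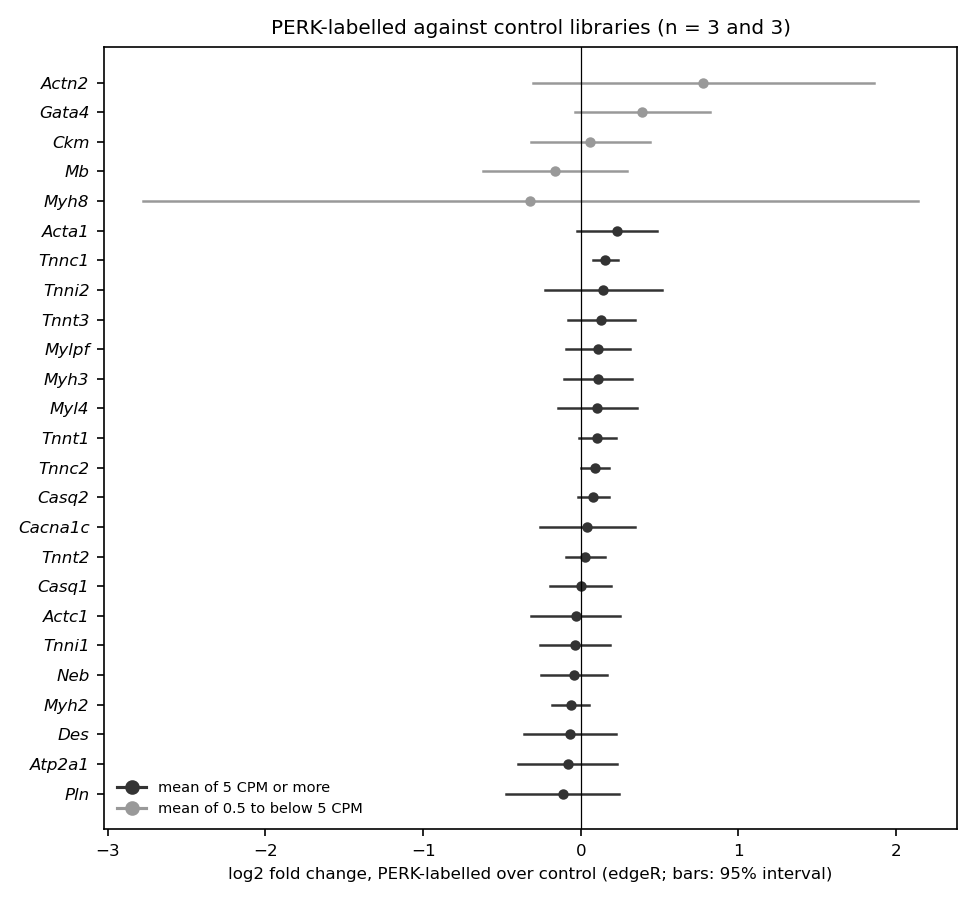
Log2 fold change of PERK-labelled over control libraries for the 20 expressed members in black and the 5 low members in grey, with bars for the 95% interval of the edgeR quasi-likelihood fit (3 libraries per group). Tnnc1 and Tnnc2 are the 2 genes whose interval excludes 0 before adjustment; the widest interval belongs to Myh8.

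The authors' deposited table, which rests on the same counts, gives 1 of the 34 members an adjusted p under 0.05, beside 2.27% of the entries that have one there. That member is Myh6, with a log2 fold change of -4.98 and an adjusted p of 0.0304 in the authors' deposited table. It rests on the 14 counts of control replicate 3, fewer than the limit of 18 counts that a library listed at 0 allows. The low-count filter left Myh6 out of the test here. For Gata4 the authors' deposited table gives 0.40 with an adjusted p of 0.0636, and for Tnnc1 0.16 with 0.296.

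Other muscle genes, from 9 lists, placed the members in their setting. The dystrophin complex and muscle membrane list, which ties the sarcomere to the cell surface, had 17 of 18 genes expressed, and smooth muscle genes had 12 of 12. Of thick filament and M-band companions 6 of 16 were expressed, and of the myosin binding proteins Mybpc1, Mybpc2 and Mybpc3 were near 0 while Mybph was expressed at a mean of 14.8 CPM. Thin filament and Z-disc companions had 22 of 35 expressed, excitation-contraction coupling companions 19 of 31, muscle energy metabolism companions 5 of 16 and cardiac transcription factors 8 of 17. Myogenic regulators had 9 of 14 expressed, with Myod1 at 86.2 ± 3.12 CPM in control. The 8 expressed genes of the cardiac transcription factor list were Mef2a, Mef2c, Mef2d, Srf, Mkl1, Hand2 at a mean of 8.59 CPM, Myocd at 8.38 CPM and Tbx2 at 5.12 CPM. Gata6 at 3.98 CPM and Irx5 were low, Nkx2-5, Tbx5, Isl1, Gata5 and Irx4 were near 0, and Tbx20 and Hand1 were listed at 0.

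**Figure D4:**
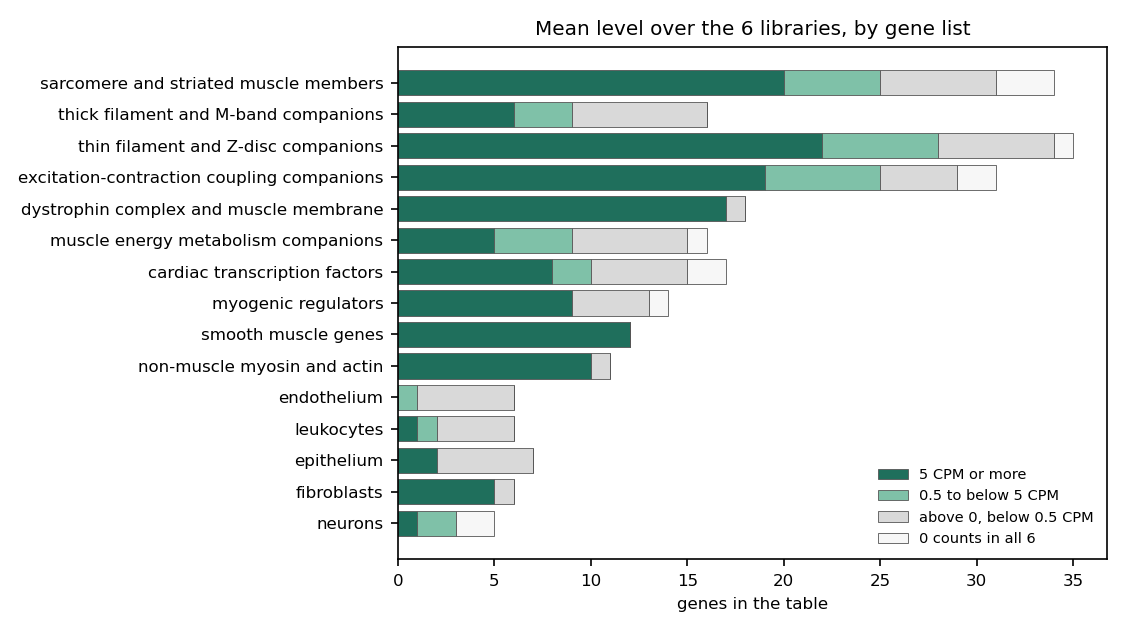
Number of genes in the count table for the members, the 9 companion lists and 5 lists of other cell types, split by mean level over the 6 libraries. Dark green marks 5 CPM or more, light green 0.5 to below 5 CPM, grey below 0.5 CPM and white 0 counts in all 6 libraries; 20 of 34 members and 12 of 12 smooth muscle genes are dark green.

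Of the companion genes tested 5 passed the adjusted threshold (Fhl2, Myog, Actg2, Actg1 and Actn1). The number tested in each list is given below, and over all 14488 entries tested 61 or 0.421% passed. Changed, rose and fell mean here that a gene passed that threshold, and genes that did not pass may still differ. Of 13 tested thick filament and M-band companions 0 changed (median log2 fold change -0.03), with Trim55 and Obsl1, the most abundant, at 0.06 and -0.04. Of 30 tested thin filament and Z-disc companions 1 rose and 0 fell (median 0.05). It was Fhl2, a LIM protein that binds titin, from 49.7 ± 1.17 to 61.1 ± 1.65 CPM (log2 fold change 0.30, SE 0.04, edgeR adjusted p = 0.0365). Of 29 excitation-contraction coupling companions 0 changed (median 0.03), with Atp2a2, the calcium pump SERCA2 of heart and slow fibres, at 0.12 and Rapsn, which clusters acetylcholine receptors, at 0.03. Of 18 dystrophin complex genes 0 changed (median 0.07), with Dag1, dystroglycan, at 0.07 and Itga7, the muscle laminin receptor, at 0.15. At an unadjusted p under 0.05 these 4 lists had 0 of 13, 13 of 30, 1 of 29 and 5 of 18 genes, beside 11.2% of all tested entries.

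Muscle energy metabolism companions had 0 of 12 changed (median -0.11), with Eno3, muscle enolase, at 0.02 and Phka1, a phosphorylase kinase subunit, at -0.11. Cardiac transcription factors had 0 of 11 changed (median 0.08), with Mef2a at -0.03 and Srf, serum response factor, at 0.20. The unadjusted p was under 0.05 for 1 of 12 and 3 of 11 genes of these 2 lists, and for 3 of 10 myogenic regulators, 6 of 12 smooth muscle genes and 5 of 10 non-muscle myosin and actin genes, beside 11.2% of all tested entries. Of 10 myogenic regulators 1 fell, Myog, from 486 ± 10.2 to 399.7 ± 9.25 CPM (log2 fold change -0.28, SE 0.03, edgeR adjusted p = 0.0137), while 0 members changed with edgeR.

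Of 12 smooth muscle genes 1 rose, Actg2, smooth muscle gamma-actin, from 737, 760.5 and 781 CPM in control to 908, 881 and 911 CPM with adPERK (log2 fold change 0.24, SE 0.03, edgeR adjusted p = 0.0286). Of 10 non-muscle myosin and actin genes 2 rose, Actg1, cytoplasmic gamma-actin, by 0.22 (SE 0.03, edgeR adjusted p = 0.0269), and Actn1, the non-muscle alpha-actinin, by 0.23 (SE 0.03, edgeR adjusted p = 0.0386). The medians of these 2 lists were 0.09 and 0.10. The sarcomeric counterparts stood at 0.23 for Acta1 and 0.78 for Actn2 with wider errors, and the difference between them was not tested. Reads may be shared among actins, so Actg1 and Actg2 are uncertain as single genes. None of Fhl2, Actg1, Actg2 and Actn1 passed with any 1 of the 6 libraries left out (edgeR adjusted p from 0.0612 to 0.176), while their log2 fold changes stayed at 0.28 to 0.32, 0.21 to 0.23, 0.22 to 0.27 and 0.20 to 0.25 in that order. Myog stood at -0.30 to -0.26 and passed in 1 of those 6 fits, the one without control replicate 1 (edgeR adjusted p = 0.0261).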

How the data were processed

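RNA was sequenced from 6 H9c2 libraries, 3 per group, prepared by an Illumina TruSeq protocol, per the labels, from 1 ug of RNA each. The authors deposited whole-number counts per gene, used as deposited. Bowtie 0.12.2 and the mouse build mm9 are named in the submitters' processing notes, while entries carry rat gene names. The sources used here give neither the counting program nor its strand setting. The authors' deposited log2 fold changes, p-values and adjusted p-values were read for comparison and used in no test. A second table of 6 per-sample columns whose names match no label was not used.

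Counts were scaled by TMM, filtered with filterByExpr (minimum count 10) and tested in edgeR 4.0.16 (R 4.3.3) by glmQLFit and glmQLFTest with group as the only term, with Benjamini-Hochberg adjustment at 0.05 over all entries. SEs and 95% intervals come from the fold change, the F statistic and its degrees of freedom. DESeq2 1.42.0, other scalings and filters, a replicate block, counts divided by 6 and leaving out each library were alternatives. Members and lists were chosen with earlier results of these data known. Named are all members, and of each companion list its changed genes, or otherwise the 2 most abundant; other genes were named after their values were seen. Older symbols of companions were matched through RefSeq names (GRCr8). On simulated counts for 14137 genes drawn for this comparison, with 50 genes altered per fold size, edgeR called 2 at 1.2-fold, then 36 (1.5-fold), 46 (2-fold) and 50 (4-fold), with 7 false among 141 calls. Only genes with a mean of 5 CPM or more were altered, so these rates do not cover the low and near-0 members. Each simulated gene had the spread fitted for genes of its level, not its own, and the steps of about 6 were not simulated.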

Additional observations from a re-analysis of the deposited data

How the results depend on the processing

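The 0 members called with edgeR stayed 0 with every edgeR alternative tried. DESeq2 called 1, Tnnc1, of the 18 members it gave an adjusted p, beside 3.9% of all entries given one. At an unadjusted p under 0.05 the members numbered 1 to 10 of 28 with 1 library left out, beside 8.85% to 10.5% of all tested entries. In the other fits they numbered 2 to 4, beside 8.3% to 12.9%. Of the 330 member fold changes under an alternative, 309 kept their direction and side of the threshold, 1 passed it and 20 changed sign. The 61 calls over all entries (45 higher, 16 lower) became 372 (246 and 126) with DESeq2, 94 (63 and 31) when low counts were kept, 90 (61 and 29) when the minimum count was raised to 50, 93 (63 and 30) with counts divided by 6 and 12 to 38 (7 to 23 and 4 to 15) with 1 library left out, fits that have fewer libraries. The replicate block gave 9 calls (7 and 2) and 0 members; same-numbered libraries had correlations of deviations of -0.0631, 0.0114 and 0.029, so the numbers were not taken as pairs. Fhl2, Actg1, Actg2, Actn1 and Myog did not pass with the block (edgeR adjusted p from 0.0567 to 0.153), and Actg1 did not pass without a filter either. The cause of these shifts was not tested. Members listed at 0 numbered 5 in place of 3 without control replicate 3.

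With 1 library left out the log2 fold change ranged from -1.11 to 0.26 for Myh8, -0.0126 to 0.0782 for Tnnt2, -0.11 to 0.0623 for Tnni1, -0.0413 to 1.88 for Tnni3, -0.091 to 0.0437 for Actc1, -0.14 to 0.0184 for Neb, -0.142 to 0.00191 for Des, -0.0309 to 0.181 for Ckm, -0.202 to 0.0368 for Atp2a1, -0.0653 to 0.215 for Cacna1c, -0.0669 to 0.0401 for Casq1 and -0.303 to 0.00302 for Pln. Without a filter Casq1 stood at 0.0034, beside -0.00079. Low counts limit Myl1, Myh7, Myh8 and Tnni3, and the limit of 18 counts limits the genes listed at 0.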
